A study of Homo sapiens with 8 samples.

Results

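The comparison set 2 embryonic stem cell clones that carry extra copies of ZFX, clones 2 and 5, against 1 clone without them, control clone 3. It used the 6 arrays of these lines, 2 per line, out of 8 Illumina bead arrays in the series. All lines derive from H9, an established human embryonic stem cell line, and were grown under standard conditions for such cells. Clones 2 and 5 had received a bacterial artificial chromosome (BAC), a large genomic clone that holds the ZFX locus, and had been picked by drug resistance. Clone 3 is described as a clonally derived wild-type line, and the labels do not say whether it went through the same selection. The remaining 2 arrays, of uncloned parental H9, were left out of the main comparison and serve as a second control where stated. Of 48802 probes, 22301 were detected on at least 2 of the 6 arrays (detection p under 0.05). With 1 probe kept per named gene, they gave 18293 features to test, which are 12316 named genes and 5977 probes without a gene name.

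ZFX is an X-linked zinc finger transcription factor that binds near the start sites of many active genes, and in the mouse it is needed for the self-renewal of embryonic stem cells. Human embryonic stem cells are maintained by FGF and activin or Nodal signalling together with the factors POU5F1, SOX2 and NANOG. When Nodal and Wnt signals rise, such cells can turn on genes of the primitive streak, the embryonic structure from which mesoderm and endoderm arise.

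Because the control condition is 1 clone, an effect of ZFX cannot be told apart from what is particular to clone 3. The spread between control clones was not measured, and the p-values of the main comparison take it to be like that between the ZFX clones. The labels do not give the origin of replicate arrays, which may be of 1 culture, and the spread between them may then be technical. Between 19267 and 20588 probes were detected per array, and the small number of arrays limits the precision. Across genes, which are not independent replicates, arrays of a line correlated at 0.994 and ZFX arrays with clone 3 arrays at 0.981 to 0.982. Along the first principal component, with 57.7% of the variance, clone 3 lay apart from both ZFX clones, and the second (16.3%) set clone 2 apart from clone 5. Clone 3 also stood apart from parental H9, with 3778 of 18293 features called between them in a fit of line means. The p-values of that fit measure only the spread within lines. A separate fit of line means that left out the clone 3 arrays called 2711 features for clone 2 over H9 and 942 for clone 5. Its p-values have the same limit, and its counts are not strictly comparable with the 3778. The value of the ZFX clones over H9 is therefore given beside many of the results.

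ZFX itself was higher in both ZFX clones. Its normalized log2 intensity was 7.53 and 7.62 in clone 2 and 7.05 and 7.50 in clone 5, against 6.24 and 6.10 in clone 3. All 4 ZFX arrays lay above both clone 3 arrays, and the means were 7.42 ± 0.255 (SD, n = 4 arrays of 2 clones) in the ZFX clones and 6.17 ± 0.0933 (SD, n = 2) in clone 3. ZFX rose by 1.25 on the log2 scale (SE 0.175, limma adjusted p = 1.24e-05), or 2.39-fold. The log2 fold over clone 3 was 1.40 in clone 2 and 1.10 in clone 5, and the difference between the clones did not pass (adjusted p = 0.235). Over parental H9 the log2 fold was 1.42 (adjusted p = 2.94e-05). The authors' processed values, whose background correction is unknown, gave ZFX a log2 fold over clone 3 of 0.67.

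In all, 1473 of 18293 features passed the test of ZFX clones against clone 3 at an adjusted p under 0.05, which is 8.05%. Of these, 827 (4.52%) were higher and 646 (3.53%) lower in the ZFX clones. The falls reached further than the rises: 39 features fell and 12 rose by at least 4-fold, although the counts at 2-fold or more were 181 and 164. Without any call, 35.4% of features had all 4 ZFX arrays on 1 side of both clone 3 arrays. The share of higher features among those called was 56.1%, against 45.8% of 1194 calls when arrays were scaled to a common median. That scaling moved the median log2 fold of all features to -0.0364, against 0.0057 in the main comparison. Of the called features, 36 of those that fell were undetected on every ZFX array by their tested probe, and 52 of those that rose were undetected on both clone 3 arrays. For these only a bound on the fold is given, from the mean of the brighter group over the dimmest detected probe on each array of the dim group or the dim value if higher. Such a feature entered the test only through the brighter group, where it had to measure higher. Against parental H9 in place of clone 3, 350 features passed (1.91%), 235 higher (1.28%) and 115 lower (0.629%). The features were kept by detection on the ZFX and clone 3 arrays, so a gene detected only in H9 could not be called lower.

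**Figure D1:**
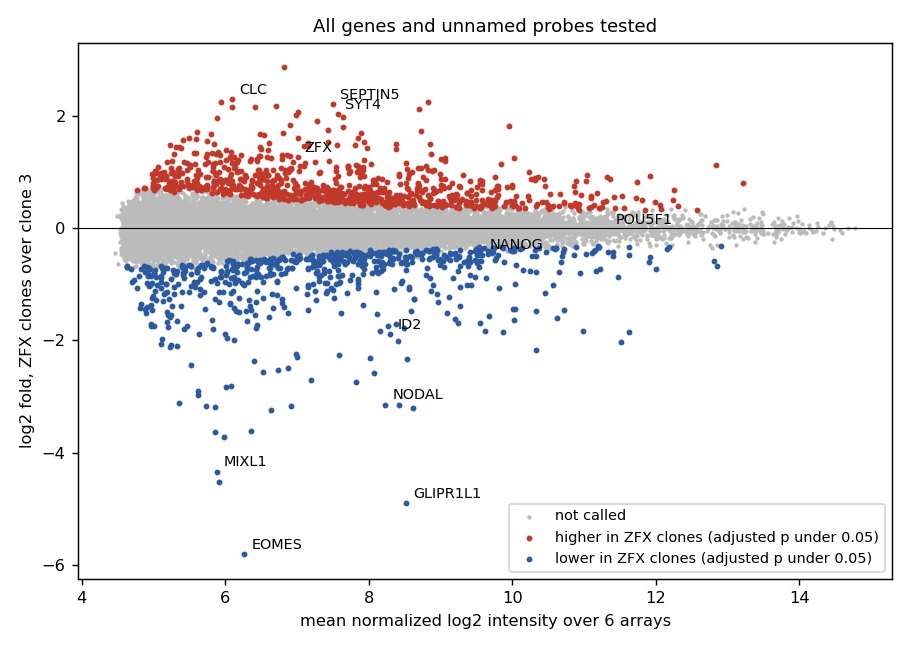
Each point is a gene or unnamed probe, with its mean normalized log2 intensity over the 6 arrays on the horizontal axis and the log2 fold of the ZFX clones over control clone 3 on the vertical axis. Red points (827) were called higher and blue points (646) lower in the ZFX clones, and the blue points reach further from 0, down to EOMES at -5.81, a fitted value, since EOMES was undetected in the ZFX clones.

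Each ZFX clone was also set against clone 3 on its own, with p-values that measure only the spread within lines. Clone 2 differed from clone 3 in 3311 features (18.1%), with 1807 (9.88%) higher and 1504 (8.22%) lower. Clone 5 differed from it in 3463 (18.9%), with 1786 (9.76%) higher and 1677 (9.17%) lower. Both comparisons use the same 2 clone 3 arrays, so they are not independent. The direct test of clone 5 against clone 2, in which clone 3 cancels, called 744 features (4.07%), 258 (1.41%) higher in clone 5 and 486 (2.66%) higher in clone 2. Leaving out an array moved these counts by over 1.5 times in 6 cases. Clone 2 against clone 3 gave 2202 without clone 2 replicate 2, 2169 without clone 3 replicate 1 and 2170 without clone 3 replicate 2. Clone 5 against clone 3 gave 2307 without clone 3 replicate 2. Clone 5 against clone 2 gave 231 without clone 2 replicate 1 and 302 without clone 2 replicate 2.

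The 12 largest falls among called named genes held transcription factors and ligands of the early embryo. They were EOMES, GLIPR1L1, GAD1, MIXL1, SP5, FGF8, FOXA2, CER1, CYP26A1, LRFN5, CST1 and NODAL, with a median log2 fold of -3.62 over clone 3 (-3.55 with undetected genes at their bound) and of -0.722 over H9. EOMES, a T-box factor that acts early in mesendoderm, measured 4.34 and 4.32 in clone 2 and 4.33 and 4.32 in clone 5, against 10.05 and 10.22 in clone 3. It was undetected on all 4 ZFX arrays and strongly detected in clone 3, with a fall of at least 40.9-fold (adjusted p = 3.1e-18). GLIPR1L1, a member of the CAP family of secreted proteins, measured 7.13 and 7.15 in clone 2 and 6.55 and 6.73 in clone 5, against 11.81 and 11.76 in clone 3 and fell by 4.89 (SE 0.147, adjusted p = 3.1e-18). Its level was detected everywhere, with a gap between groups far wider than that between the ZFX clones. Over H9 GLIPR1L1 fell by 2.33 (adjusted p = 3.68e-09). GAD1, a glutamate decarboxylase that makes the transmitter GABA, measured 4.34 to 4.49 on the ZFX arrays, against 8.93 and 8.93 in clone 3, with no detection in the ZFX clones and a fall of at least 17.7-fold, and over H9 of at least 1.55-fold (adjusted p = 0.00373). EOMES, GAD1, MIXL1 and FGF8 entered the test only through the clone 3 arrays, and such a gene had to measure higher there. LRFN5, an adhesion molecule of synapses, was undetected in clone 5 and fell by 3.18 over clone 3, with -0.80 over H9 (adjusted p = 0.0727). CST1, a secreted cysteine protease inhibitor, fell by 3.18 over clone 3 and had a log2 fold of -0.082 over H9 (adjusted p = 0.966). CYP26A1, which breaks down retinoic acid, measured 7.20 and 7.47 in clone 2 and 7.85 and 7.68 in clone 5, against 10.74 and 10.77 in clone 3 and fell by 3.20 (SE 0.147). Over H9 it fell by 0.69 (adjusted p = 0.0207). Its 2 other probes had log2 folds of -2.45 and -2.62 that also passed. The same 12 genes kept their direction against H9 except FOXA2, and 6 of them passed there.

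The 12 largest rises were smaller, with a median log2 fold of 2.15 over clone 3 (2.11 with undetected genes at their bound) and 0.905 over H9. They were CLC, RIPOR2, UTF1, SEPTIN5, DGKK, TLE2, NPTX1, WDR72, TTYH1, SYT4, BTBD17 and PCDHB5, and 8 of them passed against H9. CLC, the Charcot-Leyden crystal galectin, measured 6.74 and 6.85 in clone 2 and 6.95 and 6.86 in clone 5, against 4.66 and 4.46 in clone 3. It was detected on every ZFX array and on neither clone 3 array, a rise of at least 4.29-fold (adjusted p = 6.75e-10). CLC and UTF1 entered the test only through the ZFX arrays, as did 1119 of all features, and such a gene had to measure higher there. Over H9, CLC rose by 1.78 (adjusted p = 1.46e-06). RIPOR2, an inhibitor of the small GTPase RhoA, measured 9.43 and 9.39 in clone 2 and 9.73 and 9.71 in clone 5, against 7.33 and 7.32 in clone 3 and rose by 2.25 (SE 0.123). It was also lower in clone 3 than in H9, with a log2 fold of -1.51, and its rise over H9 was 0.72. WDR72, a WD-repeat protein needed for tooth enamel, rose by 2.11 over clone 3 and by 1.82 over H9. SEPTIN5, a septin found at synaptic vesicles, rose by 2.21 over clone 3 and by 2.05 over H9, while another SEPTIN5 probe had a log2 fold of 0.25 over clone 3 (adjusted p = 0.682, not called). The lipid kinase DGKK rose by 2.17, and another DGKK probe had 0.50 (adjusted p = 0.206). The protocadherin PCDHB5 rose by 1.98, TTYH1, of the tweety family of anion channels, by 2.07, and BTBD17 by 2.02. Over H9 the log2 folds of these 3 genes were 0.40, 0.25 and 0.026, and none of the 3 passed (limma adjusted p = 0.129, 0.574 and 0.986). The median log2 fold in the authors' processed values was -2.11 for the 12 falls and 1.04 for the 12 rises, and 9 of the falls and 10 of the rises were over 1.5 times smaller there. Among probes without a gene name, ILMN_1893675 had the largest rise, 2.86 (adjusted p = 3.53e-07), and 1.28 over H9.

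**Figure D2:**
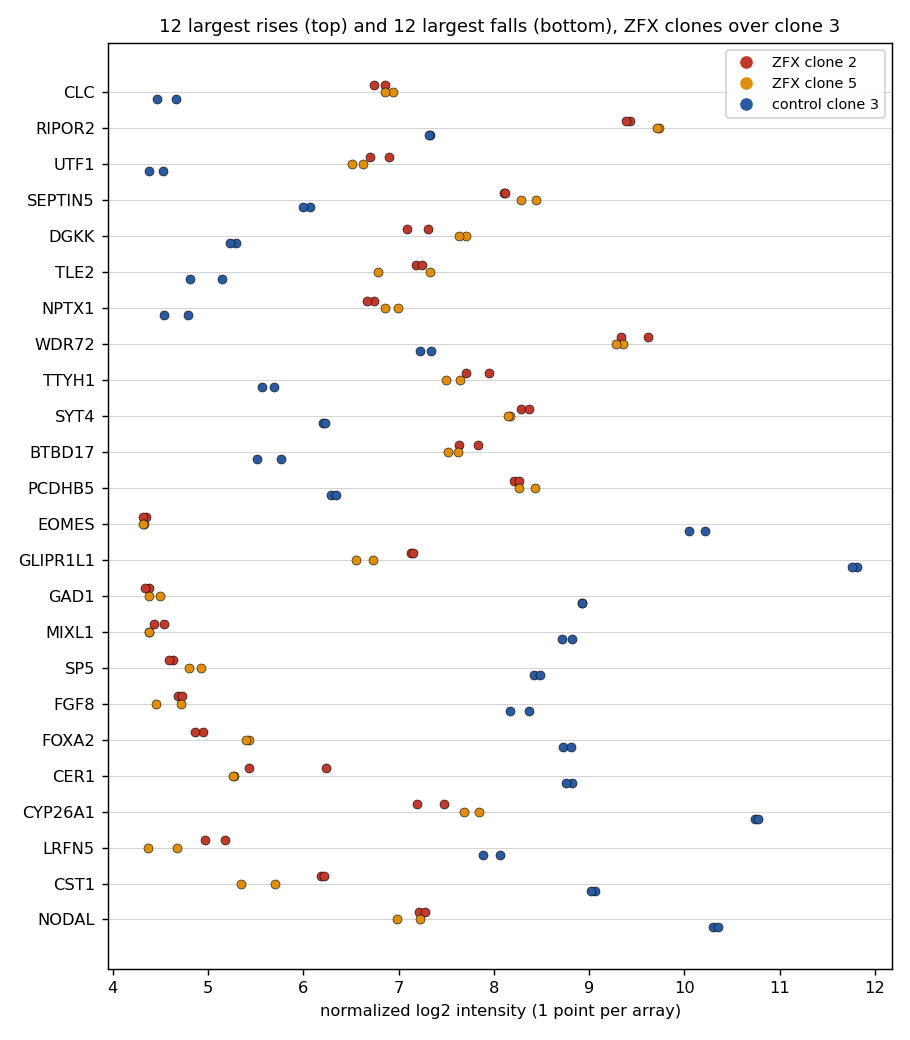
Normalized log2 intensity on each of the 6 arrays (horizontal axis) for the 12 called named genes with the largest rise and the 12 with the largest fall, 1 gene per row. In every row the points of ZFX clone 2 (red) and clone 5 (orange) lie on 1 side of both points of control clone 3 (blue), and EOMES, GAD1, MIXL1 and FGF8 sit near the lowest intensity in the ZFX clones.

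Promoter windows from RefSeq (GRCh38.p14, 250 bases before to 50 after the start of a gene) were searched for AGGCCT, the core of the sequence that ZFX is reported to bind and its own reverse complement. Among the 24 genes above, 18 had a window in the table, and 3 of these held AGGCCT. They are shown because they are the only ones of the 24 with that sequence, which is in capitals. NODAL lies at chr10:70441632-70441931 on the minus strand, CYP26A1 at chr10:93073225-93073524 on the plus strand and CLC at chr19:39737980-39738279 on the minus strand, and each is written 5′ to 3′ along its gene.
NODAL: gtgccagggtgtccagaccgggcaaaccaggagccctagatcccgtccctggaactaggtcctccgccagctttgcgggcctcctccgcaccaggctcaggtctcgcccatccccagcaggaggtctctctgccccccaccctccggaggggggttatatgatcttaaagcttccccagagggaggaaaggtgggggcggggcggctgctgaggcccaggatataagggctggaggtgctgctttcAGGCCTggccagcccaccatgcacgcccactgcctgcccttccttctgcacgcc
CYP26A1: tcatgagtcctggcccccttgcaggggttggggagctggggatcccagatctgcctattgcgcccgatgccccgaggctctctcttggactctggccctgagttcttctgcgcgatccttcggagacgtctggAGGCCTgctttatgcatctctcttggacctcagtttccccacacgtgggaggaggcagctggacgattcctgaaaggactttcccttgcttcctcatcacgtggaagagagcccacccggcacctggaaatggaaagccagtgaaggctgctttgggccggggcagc
CLC: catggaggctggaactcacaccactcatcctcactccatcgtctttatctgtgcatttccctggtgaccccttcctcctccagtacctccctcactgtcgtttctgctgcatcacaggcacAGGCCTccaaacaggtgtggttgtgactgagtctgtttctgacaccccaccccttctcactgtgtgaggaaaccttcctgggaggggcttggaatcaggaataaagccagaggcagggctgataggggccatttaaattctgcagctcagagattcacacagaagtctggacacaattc
In NODAL these bases span the start of the gene, and in CYP26A1 and CLC they lie upstream of it. Of all 35116 windows 10.9% held AGGCCT, as did 10.6% of 9983 windows of tested genes, 11.7% of 531 of genes called higher and 8.77% of 456 of genes called lower. Over the 24 genes this was 1 of 9 windows for the rises (11.1%) and 2 of 9 for the falls (22.2%). The T-box sequence AGGTGTGA, searched on both strands, was in 0.98% of all windows and in 0 of 9 for the rises and 0 of 9 for the falls. A match describes these letters only, since no binding was measured here.

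Among the 25 gene lists examined, chosen with earlier results of these data known, primitive streak genes had the lowest median log2 fold. Of 12 listed genes 8 passed the detection filter, and of these 6 fell and 0 rose, beside 3.53% of all features that fell and 4.52% that rose. They had a median log2 fold of -2.59 (-2.17 with undetected genes at their bound), against 0.0057 over all features. MIXL1, a homeobox factor of the streak, measured 4.43 and 4.54 in clone 2 and 4.38 and 4.38 in clone 5, against 8.82 and 8.71 in clone 3. TBXT, the T-box factor brachyury that marks the streak, measured 4.31 and 4.31 in clone 2 and 4.31 and 4.32 in clone 5, against 7.33 and 7.55 in clone 3. GSC, the organizer homeobox factor goosecoid, measured 4.52 and 4.37 in clone 2 and 4.47 and 4.29 in clone 5, against 6.52 and 6.42 in clone 3. None of the 3 was detected on any ZFX array, all 3 were detected on both clone 3 arrays, and they were at least 15.9-fold, 6.31-fold and 3.22-fold lower in the ZFX clones. The ligands FGF8 and FGF17, which the streak expresses, were at least 11.2-fold and 1.98-fold lower, again undetected on the ZFX arrays except for a second FGF8 probe, which 1 of the 4 detected and which fell by 3.36. A second TBXT probe, also undetected in the ZFX clones and detected in clone 3, passed (adjusted p = 0.00313). In bulk RNA, fewer cells that express these genes and less RNA of them per cell cannot be told apart. LHX1 and EVX1, detected on 1 and 1 of the 4 ZFX arrays, had -0.20 and -0.17 on the log2 scale and were not called. All 6 genes that fell entered the test only through detection on both clone 3 arrays, as did 275 of all features, and such a gene had to measure higher in clone 3. These genes were low in H9 too: TBXT, GSC and FGF17 were undetected in H9 and at least 6.23-fold, 3.18-fold and 1.95-fold higher in clone 3 than there. Over H9 the list's median was -0.0456, with TBXT, GSC and FGF17 at background in both groups. EOMES was the 1 member that fell over H9, at least 2.24-fold (adjusted p = 2.05e-05).

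Endoderm and mesoderm genes were lower in smaller numbers, beside 3.53% of all features that fell and 4.52% that rose. Of 13 listed endoderm genes 7 were tested and 3 fell and 0 rose (median -0.417, or -0.304 with undetected genes at their bound), and of 15 mesoderm genes 11 were tested and 3 fell and 0 rose (median -0.145). FOXA2, a forkhead factor of endoderm, measured 4.95 and 4.86 in clone 2 and 5.43 and 5.40 in clone 5, against 8.73 and 8.80 in clone 3 and fell by 3.61 (SE 0.188). All ZFX arrays detected it at a low level, and over H9 its log2 fold was 0.14 (adjusted p = 0.922). PRDM1, a zinc finger repressor of endoderm and germ cells, was undetected in the ZFX clones and at least 2.09-fold lower. GATA4, an endoderm and heart factor, was undetected there as well, with 4.42 to 4.56 on the ZFX arrays, against 4.91 and 4.84 in clone 3 (adjusted p = 0.297), and the receptor CXCR4 had a log2 fold of -0.049 (adjusted p = 0.95). Among mesoderm genes the apelin receptor APLNR was at least 2.15-fold lower, also undetected in the ZFX clones. PRDM1, GATA4 and APLNR entered the test only through the clone 3 arrays, and such a gene had to measure higher there. The cardiac actin ACTC1 fell by 1.17 and the VEGF receptor KDR by 0.97. Over H9, ACTC1 fell by 0.90 (adjusted p = 0.00223) and KDR had a log2 fold of -0.016.

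**Figure D3:**
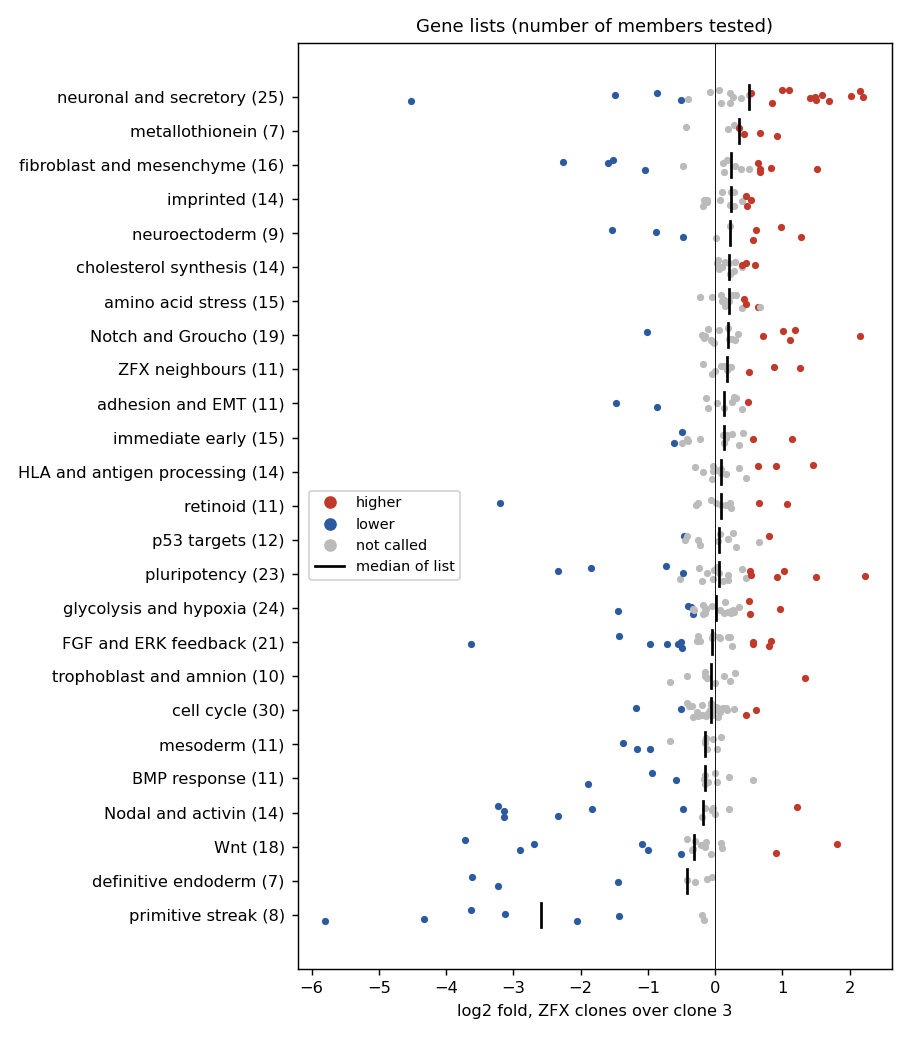
Log2 fold of the ZFX clones over control clone 3 (horizontal axis) for every tested member of the gene lists, 1 list per row, with red points for members called higher, blue for those called lower, grey for the rest and a black bar at the median. Folds of undetected genes are fitted values. The primitive streak row reaches furthest to the left, with 6 of 8 members lower, and the neuronal and secretory row has 12 of 25 members higher and 4 lower.

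Nodal signalling genes fell at the level of ligands and of secreted inhibitors. Of 14 tested members, out of 17 listed, 6 fell and 1 rose (median -0.179), beside 3.53% and 4.52% of all features. NODAL, the ligand, measured 7.21 and 7.28 in clone 2 and 6.98 and 7.23 in clone 5, against 10.30 and 10.35 in clone 3. It fell by 3.15 (SE 0.129, adjusted p = 2.63e-15), and over H9 by 1.19 (adjusted p = 2.02e-05). GDF3, a related ligand, fell by 2.33 and measured 7.60 to 8.03 on the ZFX arrays, against 10.04 and 10.12 in clone 3. FST, the activin-binding protein follistatin, measured 7.30 and 7.16 in clone 2 and 7.55 and 7.46 in clone 5, against 10.50 and 10.53 in clone 3, fell by 3.14 over clone 3 and by 1.57 over H9. CER1, a secreted inhibitor of Nodal, fell by 3.24, with clone 2 replicate 1 at 6.24 and the other ZFX arrays at 5.27 to 5.43. Over H9, GDF3 had 0.17 and CER1 -0.064, and neither passed (adjusted p = 0.782 and 0.978). LEFTY2 and LEFTY1, Nodal inhibitors that are also targets of the pathway, fell by 1.83 and 0.48. Against H9 the direction of LEFTY2 turned, with a log2 fold of 0.69 (adjusted p = 0.0126). INHBE, an inhibin beta subunit, was the member that rose, by 1.22. The receptors and transducers had folds near 0 that did not pass: -0.0023 for ACVR1B, -0.16 for ACVR2A, -0.20 for ACVR2B, -0.047 for SMAD2, -0.051 for SMAD3 and -0.04 for FOXH1. Over H9, 2 members of this list fell and 1 rose.

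Wnt ligands, targets and inhibitors changed in both directions, with 6 of 18 tested members (24 listed) lower and 2 higher (median -0.318, or -0.256 with undetected genes at their bound). Of all features, 3.53% were lower and 4.52% higher. WNT3, a ligand needed for streak formation in the mouse, measured 6.56 and 6.63 in clone 2 and 6.27 and 5.70 in clone 5, against 8.91 and 9.08 in clone 3 and fell by 2.70 (SE 0.204). Over H9 its log2 fold was -0.32 (adjusted p = 0.687). The fall over clone 3 was wider in clone 5 than in clone 2, 3.00 against 2.40 (adjusted p of the difference 0.00971). WLS, which carries Wnt proteins to the cell surface, was undetected on the ZFX arrays and at least 6.88-fold lower. Its other 3 probes were undetected on the ZFX arrays too, and they passed (adjusted p 0.00128 to 0.00262). All WLS probes entered the test only through the clone 3 arrays, where they had to measure higher. The Wnt targets SP5, AXIN2 and DKK1 fell by 3.71, 1.08 and 1.0. SP5, a zinc finger factor, measured 4.59 to 4.92 on the ZFX arrays, against 8.42 and 8.48 in clone 3, and 1 of the 4 ZFX arrays detected it. AXIN2, a feedback inhibitor, measured 8.13 to 8.29 on the ZFX arrays, against 9.35 and 9.21 in clone 3, so its groups were separate at a moderate level. CCND1, cyclin D1, fell by 0.50 and did not pass without clone 3 replicate 2 (adjusted p = 0.0579). The 2 members that rose were the secreted inhibitor SFRP1, by 1.81, and the receptor FZD7, by 0.90. Over H9, SFRP1 turned in sign to -0.21 (adjusted p = 0.764), with H9 well above clone 3, and AXIN2 and DKK1 had log2 folds of -0.018 and 0.025.

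Among genes that respond to bone morphogenetic proteins (BMP), 3 of 11 fell and 0 rose (median -0.15), beside 3.53% and 4.52% of all features. ID2, an inhibitor of helix-loop-helix factors, measured 7.56 and 7.65 in clone 2 and 7.64 and 7.82 in clone 5, against 9.50 and 9.62 in clone 3. All 4 ZFX arrays lay well below clone 3, and ID2 fell by 1.89 over clone 3 and by 1.34 over H9 (adjusted p = 8.92e-07). Its relative ID1 fell by 0.59 over clone 3 and by 0.53 over H9 (adjusted p = 0.0146). SMAD6, an inhibitory SMAD, fell by 0.95, with 0.31 over H9 that did not pass. ID3, the third of the ID genes tested, had a log2 fold of -0.16 over clone 3 (adjusted p = 0.503) and fell by 0.42 over H9 (adjusted p = 0.0418). The ligands BMP2 and BMP7 had 0.023 and 0.56, and the decoy receptor BAMBI -0.15, none of which passed.

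Genes of FGF signalling and of feedback on the ERK kinase pathway changed in both directions, with 7 of 21 tested members lower and 4 higher (median -0.0464). For all features these shares were 3.53% and 4.52%. Of the members that fell, FGF8, FGF17 and FGF4 entered the test only through the clone 3 arrays, and such a gene had to measure higher there. Beside FGF8 and FGF17, the ligand FGF19 fell by 0.72 and the intracellular FGF homologue FGF13 by 0.51. FGF2, the ligand that maintains these cells in culture, had a log2 fold of 0.05 (adjusted p = 0.918). FGF4 was undetected in the ZFX clones and at least 1.47-fold lower, and it did not pass without clone 3 replicate 2 (adjusted p = 0.0733). The ERK feedback inhibitors SPRY1 and SPRY2 fell by 0.49 and 0.56, and SPRY4, of the same family, rose by 0.56. DUSP6, an ERK phosphatase, measured 8.58 to 9.09 on the ZFX arrays, against 8.10 and 7.87 in clone 3 and rose by 0.81, and ETV5, a factor induced by FGF, rose by 0.83. A second ETV5 probe had 0.46 that did not pass. The receptor FGFR4 rose by 0.56. Over H9, ETV5 rose by 0.86 (adjusted p = 0.000191) and no other member of the list passed, with -0.25 for DUSP6 and 0.27 for SPRY4.

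Of the core pluripotency factors, POU5F1 and SOX2 differed little between the ZFX clones and clone 3, and NANOG was lower in the ZFX clones. POU5F1 measured 11.21 and 11.24 in clone 2 and 11.39 and 11.47 in clone 5, against 11.39 and 11.32 in clone 3, and SOX2 measured 10.59 and 10.65 in clone 2 and 10.72 and 10.40 in clone 5, against 10.44 and 10.76 in clone 3. Their groups overlapped, and neither passed, with log2 folds of -0.027 (adjusted p = 0.949) and -0.013 (adjusted p = 0.983). NANOG, the third core factor, measured 9.36 and 9.60 in clone 2 and 9.29 and 9.42 in clone 5, against 9.89 and 9.89 in clone 3 and fell by 0.47 over clone 3 (adjusted p = 0.00858), but did not pass without the intensity trend (adjusted p = 0.127). Over H9 the log2 fold of NANOG was -0.0016 (adjusted p = 1). Of 23 tested pluripotency genes, out of 26 listed, 6 rose and 4 fell (median 0.0506), beside 4.52% and 3.53% of all features. The 6 that rose included genes of low level in clone 3. UTF1, a chromatin factor of pluripotent cells, was undetected in clone 3 and at least 3.83-fold higher in the ZFX clones. DPPA5, an RNA-binding protein, measured 6.09 to 6.58 on the ZFX arrays, against 4.67 and 5.00 in clone 3 and rose by 1.5. The germline and embryo factors DPPA2 and DPPA3 rose by 1.02 and, undetected in clone 3, at least 1.57-fold, the DNA methyltransferase DNMT3B by 0.52 and the telomere protein TERF1 by 0.53. UTF1 and DPPA3 entered the test only through the ZFX arrays, where such a gene had to measure higher. Beside NANOG and GDF3, the neuropeptide galanin (GAL) fell by 1.84 and TCL1B by 0.73. LIN28A, SALL4, DPPA4, L1TD1 and ZFP42 did not pass, with log2 folds of 0.029, -0.20, 0.051, 0.19 and -0.24. Over H9, DPPA2 rose by 0.90 (adjusted p = 0.00836) and the folds of UTF1 (0.51) and GAL (0.064) did not pass.

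Genes of neurons and of regulated secretion, a list chosen with earlier results of these data known, held the most rises of any list. The count, a description only, was 12 of 25 tested (28 listed), beside 4.52% of all features, with 4 lower. Their median was 0.503, or 0.381 with undetected genes at their bound. Vesicle proteins were among those that rose. SYT4, a synaptotagmin, measured 8.28 and 8.36 in clone 2 and 8.16 and 8.14 in clone 5, against 6.21 and 6.23 in clone 3 and rose by 2.02 (SE 0.135, adjusted p = 3.8e-11). SYT11 rose by 1.49 and SYT1, the calcium sensor of transmitter release, by 0.54. SCG5, a chaperone of prohormone convertase, rose by 1.5, and the secreted neuropeptide precursor VGF by 0.99. VGF measured 8.62 and 8.58 in clone 2 and 7.72 and 7.74 in clone 5, against 7.20 and 7.16 in clone 3, so that clone 2 was above clone 5 and both were above clone 3. The neuronal pentraxins NPTX1 and NPTX2, which cluster receptors at synapses, rose by 2.15 and 1.41. NPTX1 measured 6.74 and 6.67 in clone 2 and 7.0 and 6.85 in clone 5, against 4.79 and 4.53 in clone 3, with a detected signal on 1 of 2 clone 3 arrays, and it was undetected in H9 and at least 4.04-fold higher in the ZFX clones than there. NPTX2 was detected on all 6 arrays, and over H9 its log2 fold was -0.11 (adjusted p = 0.89). The potassium channel KCNJ2 and the X-linked BEX5 entered the test only through the ZFX arrays, where such genes had to measure higher. Both were undetected in clone 3 and at least 2.69-fold and 2.42-fold higher in the ZFX clones. BEX1, of the same family as BEX5, rose by 0.84 and the intermediate filament INA by 1.09. The neurofilaments went the other way: NEFL fell by 1.49 and NEFM by 0.87. With GAD1, the growth cone protein GAP43 also fell, by 0.51. Over H9, 7 members rose and 1 fell, among them SYT4 (1.63), SYT11 (1.17) and SCG5 (0.53).

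Neuroectoderm genes went both ways, with 4 of 9 tested higher and 3 lower (median 0.225), beside 4.52% and 3.53% of all features. The POU factor POU3F1 rose by 1.28, SOX3 by 0.99, the neuronal tubulin TUBB3 by 0.56 and the Notch target HES5 by 0.60. A second POU3F1 probe had 0.38 that did not pass. OTX2, a homeobox factor of the forebrain, measured 7.13 and 7.02 in clone 2 and 8.21 and 8.03 in clone 5, against 9.07 and 9.19 in clone 3 and fell by 1.53. The 3 lines were separate, with clone 5 between clone 2 and clone 3. The lipid-binding protein FABP7 fell by 0.87 and the zinc finger factor ZIC2 by 0.49. Over H9, TUBB3 (0.65) and HES5 (0.66) rose and OTX2 fell by 0.94 (adjusted p = 0.0274), while SOX3 had -0.46 (adjusted p = 0.14).

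Notch ligands and Groucho corepressors were mostly higher where they changed, with 5 of 19 tested members higher and 1 lower (median 0.186). For all features these shares were 4.52% and 3.53%. TLE2, a Groucho-type corepressor, measured 7.18 and 7.25 in clone 2 and 6.79 and 7.33 in clone 5, against 4.81 and 5.15 in clone 3 and rose by 2.15 (SE 0.2). It stood above both clone 3 arrays on all 4 ZFX arrays, and over H9 it rose by 1.08. The ligands DLL1 and DLL3 rose by 1.11 and 1.01, LFNG, a sugar transferase that modifies Notch, by 1.19 and the target HES4 by 0.71. HEY2, another target, fell by 1.02. Over H9, LFNG rose by 0.55 (adjusted p = 0.0346) and DLL1 had 0.49 (adjusted p = 0.309). Of the retinoid genes, 2 of 11 rose and CYP26A1 fell: DHRS3, which reduces retinal, rose by 1.06, and ALDH1A1, which makes retinoic acid, by 0.65. Over H9, DHRS3 rose by 0.76 (adjusted p = 0.029). ALDH1A1 did not pass without any 1 of the 6 arrays (adjusted p 0.0518 to 0.206).

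Mesenchymal and cell adhesion genes were also mixed. Of 16 fibroblast and mesenchyme genes 5 rose and 4 fell (median 0.241), beside 4.52% and 3.53% of all features. The smooth muscle protein TAGLN measured 10.53 and 10.59 in clone 2 and 9.58 and 9.67 in clone 5, against 11.65 and 11.72 in clone 3, with both ZFX clones below clone 3 and clone 5 lowest. It fell by 1.60, the caveolar protein CAV1 by 2.27, the intermediate filament VIM by 1.52 and the collagen COL6A1 by 1.05. The collagens COL1A1 and COL6A3 rose by 1.51 and 0.83, TGFBI by 0.67, LGALS1 by 0.67 and the surface protein THY1 by 0.64. Over H9, VIM was the member that fell (0.90, adjusted p = 0.000105), and COL1A1 had 0.11. Of 11 adhesion genes, the cadherins CDH2 and CDH11 fell by 1.47 and 0.86 and the claudin CLDN6 rose by 0.49. CDH11 did not pass without clone 3 replicate 2 (adjusted p = 0.0603), and over H9 CDH2 had -0.09 (adjusted p = 0.895).

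Smaller groups rose in part, beside 4.52% of all features that rose and 3.53% that fell. Of 7 metallothioneins, which bind zinc and other metals, 4 rose and 0 fell (median 0.35). MT1X measured 12.32 and 12.27 in clone 2 and 12.13 and 12.17 in clone 5, against 11.27 and 11.32 in clone 3 and rose by 0.92, and MT1G rose by 0.67. MT1E and MT1F rose by 0.43 and 0.35, but MT1E did not pass without clone 3 replicate 2 (adjusted p = 0.0805), nor MT1F without any 1 array other than clone 2 replicate 2 (adjusted p 0.0538 to 0.162). Over H9 the metallothionein median was -0.0661, 0 rose and 1 fell, MT1M, by 1.23, while MT1X had 0.44 (adjusted p = 0.0616). Of 14 antigen presentation genes 3 rose: HLA-DRA, a class II chain, by 1.46, its invariant chain CD74 by 0.90 and the peptide-loading protein TAPBP by 0.64. HLA-DRA also rose over H9, by 1.08 (adjusted p = 0.000356), while CD74 had -0.20 there. TAPBP did not pass without clone 2 replicate 2 or clone 3 replicate 2 (adjusted p = 0.053 and adjusted p = 0.236), and its other probe had 0.018. Around ZFX on the X chromosome, 3 of 11 genes rose, ZFX among them. The thioesterase ACOT9 rose by 0.87 and the peroxiredoxin PRDX4 by 0.50. PRDX4 did not pass under median scaling or without the intensity trend. EIF2S3, the neighbour of ZFX that codes for a translation initiation subunit, measured 11.70 to 11.83 on the ZFX arrays, against 11.62 and 11.73 in clone 3, with 0.08 on the log2 scale and no call, and POLA1, a DNA polymerase subunit, had -0.0037.

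The lists of metabolic, cell cycle, imprinted and stress genes had 2 to 7 called members each, beside 8.05% of all features called in either direction. Of 30 cell cycle genes 2 rose and 2 fell (median -0.0639), with the kinase CDK6 lower by 1.18 and cyclins CCND3 and CCNE1 higher by 0.60 and 0.46. A second CCNE1 probe had 0.14 that did not pass. Of 24 glycolysis and hypoxia genes 3 rose and 4 fell (median 0.0067). BNIP3, a mitochondrial protein induced by hypoxia, fell by 1.45 and had 0.40 over H9, and the glycolytic enzyme PKM rose by 0.96 and had 0.039 over H9. Of 14 cholesterol synthesis genes 3 rose (MVD by 0.60, LSS by 0.47 and SQLE by 0.40). Other LSS probes had 0.20 and 0.16 that did not pass. SQLE did not pass without clone 2 replicate 2 (adjusted p = 0.0661) or clone 3 replicate 2 (0.152), nor LSS without clone 3 replicate 1 (0.0689). Amino acid stress genes had 3 of 15 higher, TRIB3 (0.64), PSAT1 (0.45) and ASNS (0.42). PSAT1 did not pass without either clone 5 array or either clone 3 array (adjusted p 0.0666 to 0.127), nor ASNS without clone 3 replicate 2 (0.162). Imprinted genes had 3 of 14 higher: MEST by 0.53, NDN by 0.46 and SGCE by 0.48. MEST did not pass without replicate 2 of clone 2 or replicate 1 of clone 5 or clone 3 (adjusted p 0.0558 to 0.215), nor SGCE without clone 3 replicate 2 (0.108). Immediate early genes had 2 of 15 higher, CCN1 (1.14) and CCN2 (0.56), and 2 lower, FOS (-0.61) and DUSP1 (-0.49). Over H9, CCN1 passed in the opposite direction (-0.47, adjusted p = 0.0438). CCN2 did not pass without clone 3 replicate 1 (0.0946), nor DUSP1 without either clone 3 array (0.0587 and 0.168). Of 12 p53 targets RRM2B rose by 0.80 and GADD45A fell by 0.47, which did not pass without either clone 3 array (adjusted p 0.0556 and 0.173). A second RRM2B probe had 0.19 and a second GADD45A probe -0.34, and neither passed. Under median scaling MVD, LSS, SQLE, TRIB3, PSAT1, ASNS, MEST, NDN, SGCE, CCND3, CCNE1, CCN2 and GADD45A did not pass. The other named genes that lost their call there were CLDN6, PRDX4, HK1, PFKP, MT1E and MT1F.

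The 2 ZFX clones differed from each other in some of the genes that set them apart from clone 3. In the named genes, ECHDC3 and OTX2 had the widest differences toward clone 5. ECHDC3, an enoyl-CoA hydratase domain protein, measured 5.68 and 5.64 in clone 2 and 6.82 and 6.83 in clone 5, against 8.54 and 8.43 in clone 3, so that clone 5 again lay between clone 2 and clone 3. The log2 fold of clone 5 over clone 2 was 1.17 (SE 0.114, adjusted p = 4.81e-07) for ECHDC3 and 1.05 (adjusted p = 2.1e-07) for OTX2. SFRP1 was higher in clone 5 than in clone 2 by 0.77 and in both above clone 3. LRRC58, NPDC1 and the kinesin light chain KLC2 were higher in clone 5 by 0.88, 0.78 and 0.81, while clone 2 had log2 folds of -0.082, 0.069 and -0.23 over clone 3. Toward clone 2, the actin-bundling protein LCP1 measured 6.74 and 6.83 in clone 2 and 5.55 and 5.37 in clone 5, against 5.26 and 5.17 in clone 3 and the kinase NUAK2 measured 7.43 and 7.70 in clone 2 and 6.29 and 6.42 in clone 5, against 6.14 and 6.08 in clone 3. Clone 2 alone was high in both, with differences of -1.32 and -1.21 for clone 5 over clone 2. The ribosomal protein paralogue RPL10L had -1.18. TSPYL5 was undetected in clone 5 and detected in clone 2 and clone 3, at least 2.42-fold lower in clone 5 than in clone 2, and the tetraspanin TSPAN18 had -1.18. In KIAA0040 the difference of -1.92 (adjusted p = 0.0329) came with unlike arrays of clone 2: replicate 1 measured 5.33, replicate 2 measured 8.87 and the 4 arrays of clone 5 and clone 3 measured 4.96 to 5.30. Among the pathway genes, NODAL (-0.14), SYT4 (-0.17) and TLE2 (-0.16) did not pass between the clones, and EOMES and MIXL1 were undetected in both.

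**Figure D4:**
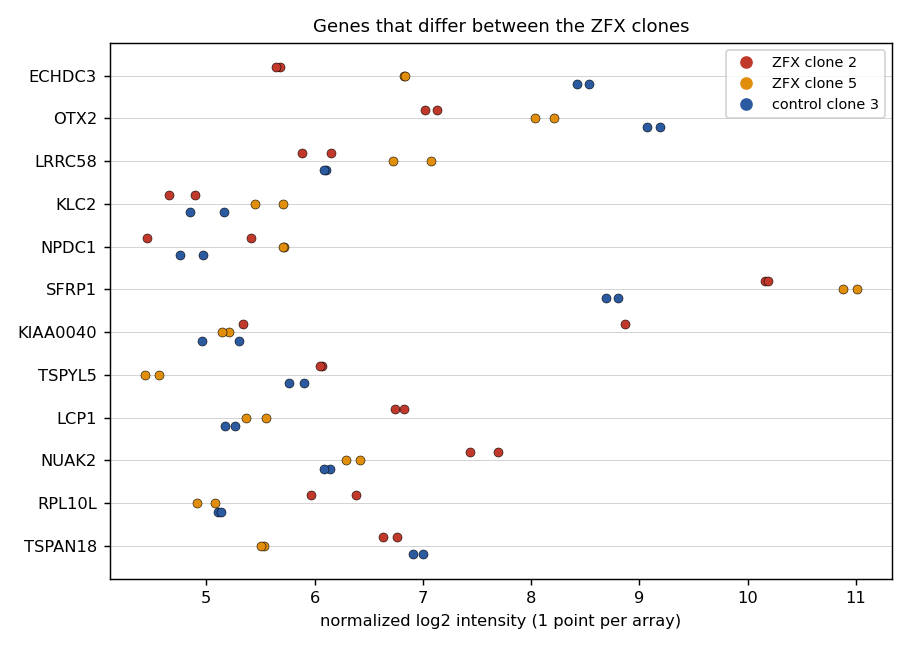
Normalized log2 intensity on each array (horizontal axis) for 12 named genes called between the ZFX clones, with ZFX clone 2 in red, ZFX clone 5 in orange and control clone 3 in blue. Clone 5 lies between the other lines for ECHDC3 and OTX2, clone 2 stands alone for LCP1 and NUAK2, and 1 clone 2 array of KIAA0040 lies far from the other.

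Parental H9 gave smaller folds for most of these genes. For the primitive streak list the median was -0.0456 over H9 and -2.59 over clone 3, and for the neuronal and secretory list it was 0.144 over H9 and 0.503 over clone 3. The comparisons with H9 and with clone 3 share the 4 ZFX arrays. The streak median over H9 includes TBXT, GSC and FGF17, undetected in both H9 and the ZFX clones, whose folds there compare background with background. Clone 3 itself measured higher than H9 for FOXA2 (3.75 on the log2 scale), CER1 (3.17), CST1 (3.09) and LEFTY2 (2.53), and lower for SFRP1 (-2.02), BTBD17 (-1.99) and TTYH1 (-1.82). Genes near the same level in clone 3 and H9 included NPTX1 and BEX5, dim in both, SEPTIN5 (-0.15), TUBB3 (0.09), ID1 (0.055) and ACOT9 (-0.14). These 6 genes, picked with their calls known, passed against both controls, which the pick largely fixed. ETV5 (0.028), PRDX4 (-0.031) and NDN (0.11) were also near and passed against both, while ASNS (-0.15) did not pass over H9 (limma adjusted p = 0.225). Over H9 the log2 folds were 2.05 for SEPTIN5, 0.65 for TUBB3, -0.53 for ID1 and 0.73 for ACOT9, while NPTX1 and BEX5 were undetected in H9 and at least 4.04-fold and 2.34-fold higher in the ZFX clones.

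**Figure D5:**
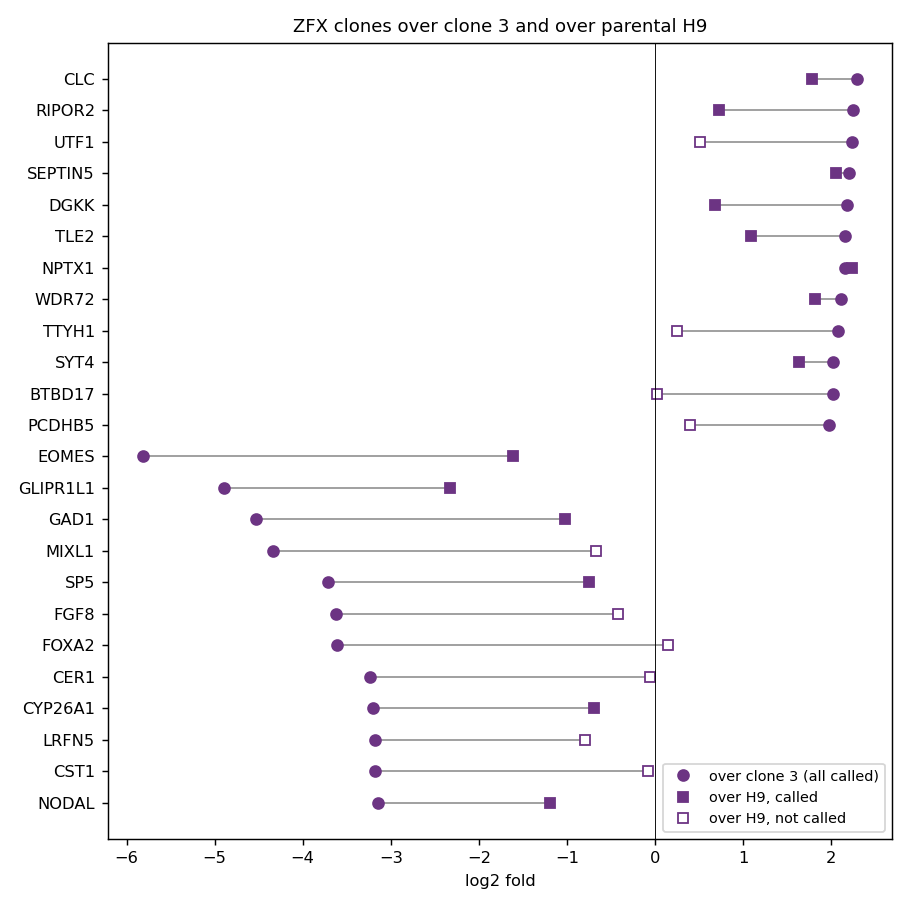
Log2 fold of the ZFX clones (horizontal axis) over control clone 3 (circles) and over parental H9 (squares, filled where called) for the 12 largest rises and 12 largest falls, 1 gene per row, with fitted values where a group was undetected. The circles and squares nearly coincide for NPTX1 and SEPTIN5, with NPTX1 undetected in H9, and the squares lie near 0 for FOXA2, CER1, CST1 and BTBD17.

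Markers of the labelled cell type were present on every array. Of 10 embryonic stem cell markers 9 were tested and all 9 were detected on all 6 arrays, and their summed background-corrected intensity was 22700 to 23300 on the ZFX arrays, against 21300 to 23200 in clone 3. Summed markers of other cell types differed between the groups, though not every member did, and their part in the results was not tested. The sum of 5 tested primitive streak markers was 21.8 to 30.3 on the ZFX arrays, against 1710 to 1840 in clone 3, with 4 of the 5 undetected on every ZFX array. Endoderm markers (3 tested of 6) summed to 70.8 to 106 on the ZFX arrays, against 879 to 882 in clone 3. FOXA2 and CER1 were lower in the ZFX clones, while CXCR4 overlapped between the groups (5.54 to 5.71 against 5.56 to 5.77). SOX17, HHEX and GATA6 were not tested. Neuroectoderm markers (3 tested of 6) summed to 311 to 503 on the ZFX arrays, against 809 to 841 in clone 3, with OTX2 and FABP7 lower and HES5 higher in the ZFX clones. Fibroblast or feeder markers (3 tested of 6) ran the other way, with 2190 to 2390 on the ZFX arrays and 1410 to 1450 in clone 3, while COL3A1, LUM and POSTN were not among the detected probes. Most of that sum was THY1, which embryonic stem cells also express, and DCN overlapped between the groups. Trophoblast and amnion markers (3 tested of 6) summed to 74.5 to 102 on the ZFX arrays, against 23.6 to 29.6 in clone 3, with GABRP as their brightest member. KRT7 and CDX2 were undetected in clone 3 and each detected on only 2 of the 4 ZFX arrays, through which alone they entered the test. Both overlapped between the groups (KRT7 4.46 to 5.06 against 4.416 to 4.651, CDX2 4.355 to 5.036 against 4.299 to 4.482). Of the 10 tested genes of the wider trophoblast and amnion list 1 rose, GABRP, a GABA receptor subunit, by 1.34, and 0 fell. Of all features, 4.52% rose and 3.53% fell.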

How the data were processed

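Gene expression was measured on Illumina bead arrays from 3 lines of H9-derived cells (2 arrays each), with parental H9 as an alternative control. Titles of the samples give the groups and replicate numbers. Linear probe intensity and its detection p-value were deposited together by the authors, who also deposited processed values. The processed values the authors deposited lie on a log2 scale, as their relation to the intensities shows, with normalization not given. The submitters' processing notes name BeadStudio, and further steps are not given in the sources used here.

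Intensities were corrected for background by normexp (limma 3.58.1, R 4.3.3, offset 16, with negative controls derived from detection p), quantile normalized over the 6 arrays and put on the log2 scale. Quantile normalization forces 1 distribution on all arrays, and normexp widens folds of dim genes. Probes detected (p under 0.05) on at least 2 of the 6 arrays were kept, and the brightest probe per gene was tested. The platform annotation named the genes, with 1 symbol for 28098 probes, several for 13 and none for 20691. Of these, 28059 matched the RefSeq gene table (GRCh38.p14) by Entrez ID.

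ZFX clones and clone 3 were compared by limma with line as a random block, a trend of variance with intensity and Benjamini-Hochberg adjustment over all 18293 features, called at 0.05. The correlation of arrays of a line was first planned from duplicateCorrelation. On simulated arrays of 3 lines that estimator came out too low, so a moment estimate of 0.35 was used instead, and duplicateCorrelation (0.0174) became an alternative. The correlation is 1 value for all genes. It rests on the spread between the ZFX clones and the spread within lines, and the control line is taken to vary alike. Single clones were compared in a fit with 3 line means. The comparison with H9 used the same features after normalizing all 8 arrays together. A gene undetected in a whole group is given as "at least", with array floors of 4.74 to 4.80 on the log2 scale over the 6 arrays.

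Named genes were ZFX, the 12 largest rises and falls with groups that do not overlap, 6 genes each way between the ZFX clones, and up to 4 called members of each of 25 lists, with POU5F1, NANOG and SOX2. Other list members were chosen for mention with their values known. The lists hold 446 genes, of which 355 were tested. The comparison, its lists and members were chosen with earlier results of these data known. Alternatives varied the background correction, the authors' processed values, scaling, the detection filter, the variance trend, the control, the treatment of lines and each array. Python 3.11.15 and matplotlib 3.10.9 drew the figures.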

Additional observations from a re-analysis of the deposited data

Results flagged for a closer look

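Between the ZFX clones, 32 of the 105 named genes differed by the limma test of clone 5 over clone 2, beside 4.07% of all features. The named genes include 12 that were chosen for this difference, so the count is a description. Values below are the log2 fold of clone 5 over clone 2.

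The 12 genes higher in clone 5 were MT1E (0.31), RIPOR2 (0.31), CYP26A1 (0.43), DGKK (0.47), FOXA2 (0.51), PSAT1 (0.52), SFRP1 (0.77), NPDC1 (0.78), KLC2 (0.81), LRRC58 (0.88), OTX2 (1.05) and ECHDC3 (1.17). Of the 20 genes higher in clone 2, those detected in both clones were KIAA0040 (-1.92), LCP1 (-1.32), NUAK2 (-1.21), RPL10L (-1.18), TSPAN18 (-1.18), TAGLN (-0.93), CST1 (-0.67), WNT3 (-0.61), CCN2 (-0.56), DHRS3 (-0.55), GLIPR1L1 (-0.50), SMAD6 (-0.46), ACOT9 (-0.45), CCND1 (-0.40), ACTC1 (-0.38), CAV1 (-0.35), CCN1 (-0.34) and GAL (-0.32). TSPYL5 and LRFN5 were undetected in clone 5, where the fitted values of -1.56 and -0.56 are against background and the bounds are at least 2.42-fold and 1.22-fold higher in clone 2.

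WNT3 fell further below clone 3 in clone 5, and FOXA2 and OTX2 in clone 2. TAGLN, an actin-associated protein of contractile cells, had the smallest adjusted p of the 32 (3e-08), and its fall over clone 3 was 2.06 in clone 5 and 1.13 in clone 2. For KIAA0040, clone 2 replicate 2 measured 8.87 and replicate 1 measured 5.33. These p-values measure the spread within lines only.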

How the results depend on the processing

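The 24 genes with the largest changes kept their calls under all alternatives that keep clone 3 as the only control and test them. Those alternatives reuse the arrays on which the 24 were picked, so the pick largely fixed this. The ZFX log2 fold ran from 0.67 in the authors' processed values to 1.42 over H9. The count of 1473 features became 350 with H9 in place of clone 3 and 240 with both controls, where 14 and 15 of the 24 genes passed. With detection required on 4 arrays, 19 of the 24 were tested and called. The count of features was 873 without an intensity trend, 2660 with line ignored, 3863 with line fixed, 3566 and 3416 with clone 2 or clone 5 alone, 2605 with duplicateCorrelation and 1106 with the correlation from 4 lines. The last 2 settings became alternatives after the data were seen, and duplicateCorrelation had been the first plan for the main fit. For clone 2 and clone 5 against clone 3 and clone 5 against clone 2, the counts were 1479, 1428 and 56 under median scaling, and 1983, 2040 and 25 without the trend. Clone 5 gave 942 against H9 and 1887 against both controls. With 1 array left out the 4 counts ran from 1042 to 1429, 2169 to 3576, 2307 to 3437 and 231 to 663, and ZFX from 1.19 to 1.37. With the replicate number as a replicate block they were 1356, 3135, 3315 and 585. Deviations of same-numbered arrays correlated at 0.0101 to 0.0201, so they shared little deviation after normalization. The labels do not say whether the numbers pair the arrays.

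With H9 in place of clone 3, 22 named genes turned in sign: FOXA2 (0.14), GDF3 (0.17), GAL (0.064), BNIP3 (0.40), SMAD6 (0.31), CDH11 (0.045), FOS (0.040), DUSP1 (0.078), KLC2 (-0.093), MT1F (-0.031), LRRC58 (-0.72), SQLE (-0.0027), MT1E (-0.066), PSAT1 (-0.37), PFKP (-0.056), MEST (-0.45), CCN2 (-0.26), MVD (-0.077), CD74 (-0.20), SOX3 (-0.46), CCN1 (-0.47) and SFRP1 (-0.21). With both controls LRRC58 did (-0.18). With clone 2 alone TSPYL5 (0.23), SOX2 (0.016), KLC2 (-0.23) and LRRC58 (-0.082) turned, and with clone 5 alone POU5F1 (0.075) and RPL10L (-0.12). With 1 array left out SOX2 ran from -0.17 to 0.15 and POU5F1 from -0.062 to 0.0052. The cause of these shifts was not tested. Under median scaling 19 of 104 named genes lost their call and 3 gained one. Without the intensity trend 22 did not pass (adjusted p 0.0796 to 0.283), among them NANOG, CCND1, NDN, CLDN6, PRDX4, HK1 and PFKP. NUAK2 was not called when an array of clone 2 or clone 3 was dropped (adjusted p 0.0971 to 0.15), and TSPAN18 when one of clone 5 or clone 3 was (0.0753 to 0.166).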

Other observations

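Gene families that share a symbol stem were counted after the values were seen, so no test is given. Among families with at least 8 tested members and at least 30% of them called, 15 were found, and 6 are described. Of all features 4.52% were called higher and 3.53% lower, and these families were kept for a high share. The matrix metalloproteinases, which cleave extracellular matrix, had 5 of 9 higher in the ZFX clones and 0 lower (median log2 fold 0.658). MMP16, a membrane-bound member, rose by 1.5 over clone 3 (adjusted p = 6.59e-08) and had 0.35 over H9. MMP23B rose by 0.86 over clone 3 and by 0.95 over H9 (adjusted p = 0.00356). MMP11, MMP25 and MMP9 rose by 0.90, 0.86 and 0.66 over clone 3. Of 12 SOX factors 5 rose and 0 fell (median 0.32): SOX9 by 1.05, SOX3 by 0.99, SOX21 by 0.91, SOX8 by 0.72 and SOX15 by 0.56. Over H9 none of these 5 passed, with 0.30 for SOX9 and 0.33 for SOX8.

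The semaphorins, guidance cues for axons, had 6 of 15 higher and 1 lower (median 0.208), with SEMA4D higher by 0.72 and SEMA6A lower by 0.51. Regulators of G protein signalling had 4 of 13 higher (median 0.183), and RGS10 rose by 1.04 over clone 3 and by 0.80 over H9. The synaptotagmins had 4 of 13 higher (median 0.363). The annexins, which bind membranes with calcium, had 3 of 10 lower (median -0.237), with ANXA3 lower by 1.03 and ANXA2 by 0.60, and the third was a pseudogene of ANXA2 whose probe may pick up ANXA2 transcripts. By chromosome, the median log2 fold over clone 3 ran from -0.0409 on chromosome 13 to 0.0533 on chromosome 20, and was 0.0098 on the X chromosome.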
